A study of Mus musculus with 6 samples.

Results

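Splenic monocytes carry a set of genes with which they kill ingested microbes, and 9 of these genes were followed here in mice with and without the IL-4 receptor alpha chain. The genes were *Cybb*, *Cyba*, *Ncf1*, *Ncf4* and *Rac2* of the phagocyte NADPH oxidase, the inducible enzymes *Nos2* and *Acod1*, and the lysozymes *Lyz1* and *Lyz2*. They were taken by name from a fixed list of effectors that left out neutrophil granule genes, and are 9 of the 55421 genes in the count files. Monocytes were obtained from the spleens of 6 C57BL/6 mice, of which 3 were IL-4Rα+/+ and the other 3 lacked the receptor (IL-4Rα-/-), by a negative selection that removes other leukocytes with antibodies and magnetic beads. The IL-4Rα-/- mice lacked the receptor in every tissue and not only in monocytes, the controls were littermates according to the methods of the study, and no agent is named for them. The methods put the age of all animals of the study at 8 to 16 weeks, and the age of each mouse is not given in the sources used here. Each library came from 1 mouse, so n = 3 per genotype throughout.

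The phagocyte oxidase is an enzyme that passes electrons from NADPH to oxygen and so makes superoxide inside the phagosome. A membrane part, formed by the products of *Cybb* and *Cyba*, is inactive until a cytosolic complex joins it together with a Rac GTPase, such as Rac1 or Rac2. This complex includes the products of *Ncf1* and *Ncf4*. *Nos2* encodes inducible nitric oxide synthase, which makes nitric oxide from arginine, and *Acod1* encodes the enzyme that makes itaconate from cis-aconitate. Both are induced by interferon gamma and microbial products, and in macrophages IL-4 is known to favor arginase over nitric oxide synthase. Lysozymes cut the cell wall of bacteria, and of the pair in the mouse *Lyz2* is the form of myeloid cells while *Lyz1* is best known from Paneth cells of the gut.

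Libraries held 26807281 to 29033297 reads counted on genes, so that 1 count was worth 0.0344 to 0.0373 CPM (counts scaled so that all genes of a library add up to the same total) before normalization. Levels are given as CPM after normalization for library size, and counting error is smallest for the strongest genes. The targeted gene *Il4ra* had 137, 128 and 177 CPM in IL-4Rα+/+ and 27.9, 79.4 and 31.8 CPM in IL-4Rα-/- replicates 1, 2 and 3. The genotypes did not overlap, and IL-4Rα-/- replicate 2 was the highest of its group. The log2 fold change was -1.67 (standard error 0.41), which DESeq2 called (adjusted p = 0.0111) and edgeR did not (adjusted p = 0.618). Which part of the gene was deleted was not analysed here. *Csf1r*, a receptor gene that monocytes express, lay between 2230 and 3090 CPM in the 6 libraries. All 10 monocyte markers looked at were above 1 CPM on average. By *Xist* and genes of the Y chromosome, and not by the labels, 1 library of each genotype (IL-4Rα+/+ replicate 1 and IL-4Rα-/- replicate 3) was female and 2 were male.

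By level, the genes fell into very unequal classes. *Lyz2* had the highest mean CPM of all genes in the files (rank 1), and *Cybb* stood at rank 23. Per length, as CPM for each kilobase of annotated exon, the order was *Lyz2* at 10300, *Cyba* at 589, *Cybb* at 366, *Rac2* at 137, *Ncf4* at 125, *Ncf1* at 90.7, *Lyz1* at 41.3, *Acod1* at 0.35 and *Nos2* at 0.00647. In this order each gene was above the next in 6 of 6 libraries, except *Rac2*, which was above *Ncf4* in 5. The ranges over the libraries overlapped between *Rac2* and *Ncf4* and between *Ncf4* and *Ncf1*, and for no other neighbours. The order of *Rac2* and *Ncf4* depended on the length used. Per kilobase of the longest transcript, mean *Ncf4* was at 173 and *Rac2* at 140, and the rest of the order was the same. The 9 genes together took 1.25% of all counts in IL-4Rα+/+ replicate 1 and 1.57% to 2.04% in the other libraries, most of it from *Lyz2*.

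**Figure D1:**
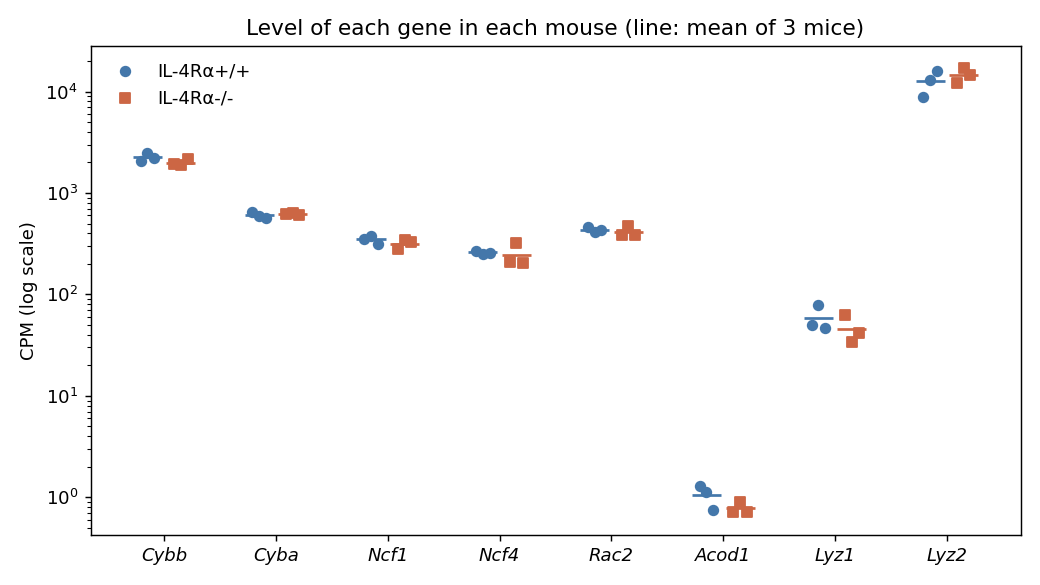
Each point is the CPM of 1 mouse on a log axis, circles for IL-4Rα+/+ and squares for IL-4Rα-/- monocytes, with a line at the mean of 3 mice. *Nos2* is not drawn because it was too low to be tested, with 0 counts in 4 libraries. The points of both genotypes overlap for every gene drawn.

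Whether the loss of the receptor altered these genes was asked with edgeR's quasi-likelihood test over the 13849 genes with enough counts, taking adjusted p-values under 0.15 as calls, as the study did. Of the 9 genes, 8 were tested and *Nos2* was too low. No member passed (0 of 8), none had an unadjusted p-value under 0.05 (0 of 8), and DESeq2 called none of them (0 of 8). Over all genes tested, edgeR called 0% at the adjusted threshold. At an unadjusted p-value under 0.05 it found 8.09%, made up of 3.72% higher and 4.37% lower in IL-4Rα-/- monocytes, and DESeq2 called 0.571%. The CPM ranges of the genotypes overlapped for each of the 9 genes, where they did not overlap in 15.5% of all genes tested. Of the 8 genes, 2 had a log2 fold change above 0, against 51.5% of all genes. Their median log2 fold change was -0.11 (-0.105 before rounding), and that of all genes was 0.0084.

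**Figure D2:**
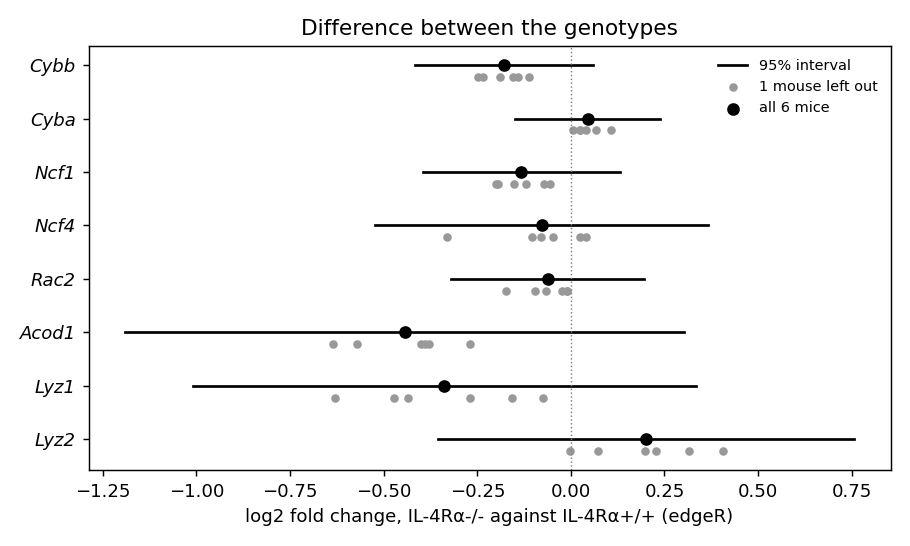
Black points give edgeR's log2 fold change of IL-4Rα-/- against IL-4Rα+/+ monocytes for 8 genes, black lines the 95% interval, and grey points the value with 1 of the 6 mice left out. All 8 intervals include 0, and they are narrowest for *Cyba* and widest for *Acod1*.

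By the sex read from the libraries, *Ncf1*, *Acod1* and *Lyz1* had lower means in IL-4Rα-/- monocytes of both sexes. Their log2 ratios of the means were -0.14, -0.21 and -0.37 in the 4 male libraries and -0.12, -0.87 and -0.27 in the 2 female libraries. The other 5 tested genes had opposite signs in the sexes. *Cyba* was at 0.13 in males, without overlap of the genotypes, and at -0.11 in females. With 2 male libraries per genotype a lack of overlap is no test, and its share among all genes was not counted. *Ncf4* and *Rac2* were at 0.07 and 0.03 in males and at -0.40 and -0.24 in females. With 1 female library per genotype, a difference between the sexes could not be tested.

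Per length, the membrane part of the oxidase was the most strongly expressed part of it. *Cybb* (ENSMUSG00000015340.10) encodes the catalytic chain that carries the electrons, and lies on the minus strand of chromosome X of GRCm38 from 9435252 to 9487771. It had 2080, 2470 and 2220 CPM in IL-4Rα+/+ replicates 1, 2 and 3 and 1910, 1890 and 2180 CPM in IL-4Rα-/- replicates 1, 2 and 3. IL-4Rα-/- replicates 1 and 2 were below all controls, while replicate 3 lay within the range of the controls. The means were 2260 ± 193 CPM (SD, n = 3) and 1990 ± 161 CPM (SD, n = 3), and edgeR's log2 fold change was -0.18 (standard error 0.10, 95% interval -0.42 to 0.06, adjusted p = 0.642 by edgeR's quasi-likelihood test). The interval spans a fold from 0.749 to 1.04. In the 4 libraries from males, both IL-4Rα-/- libraries were below both controls, with a log2 ratio of the means of -0.30. In the 2 libraries from females this log2 ratio was 0.06. How many of all genes were likewise without overlap in the male libraries was not counted. With sex as a covariate the log2 fold change over all libraries was -0.18 and the gene was not called (adjusted p = 0.692, edgeR).

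*Cyba* (ENSMUSG00000006519.11) encodes the smaller membrane chain that stabilizes the product of *Cybb*. The gene lies on the minus strand of chromosome 8 from 122424776 to 122432930. It had 654, 587 and 568 CPM in IL-4Rα+/+ and 623, 639 and 604 CPM in IL-4Rα-/- replicates 1, 2 and 3. It was the steadiest of the 8 genes. The highest library was 1.15 times the lowest, and the standard deviation of its log2 CPM over the 6 libraries, 0.076, was below that of all but 13.3% of the genes with at least 10 CPM. EdgeR gave a log2 fold change of 0.04 (standard error 0.08, 95% interval -0.15 to 0.24), a fold from 0.902 to 1.18, and -0.07 after a correction for transcript length. Within each library, *Cyba* per length was 1.75, 1.33 and 1.43 times *Cybb* in IL-4Rα+/+ and 1.82, 1.89 and 1.55 times in IL-4Rα-/- replicates 1, 2 and 3. This ratio needs no normalization for library size, and its ranges in the genotypes overlapped (p = 0.2 by an exact, two-sided permutation test, in which 0.1 is the smallest value for 3 mice against 3).

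Per length, the genes of the cytosolic subunits were lower than those of the membrane part. *Ncf1* (ENSMUSG00000015950.13, minus strand of chromosome 5 from 134220053 to 134229625) encodes the organizer that becomes phosphorylated and carries the complex to the membrane. It had 354, 376 and 313 CPM in IL-4Rα+/+ and 281, 344 and 326 CPM in IL-4Rα-/- replicates 1, 2 and 3, so that 1 IL-4Rα-/- library was below the controls and the others among them. Its log2 fold change was -0.13 (standard error 0.11, 95% interval -0.39 to 0.13). An exon of *Ncf1* overlaps one of *Gtf2ird2* on the other strand. Of all stretches of 75 bases in its longest transcript, 5.63% also occur in *Gtf2ird2*, so part of its count is uncertain while the strand setting of the counts is not given.

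*Ncf4* (ENSMUSG00000071715.12, plus strand of chromosome 15 from 78244801 to 78262580) encodes the subunit that binds a lipid of the phagosome membrane. It had 271, 250 and 258 CPM in IL-4Rα+/+ and 208, 325 and 205 CPM in IL-4Rα-/- replicates 1, 2 and 3. The controls lay close together, and the IL-4Rα-/- libraries lay on both sides of them, with replicate 2 the highest of all 6 and the others the lowest. Its SD was 10.4 CPM in IL-4Rα+/+ and 68.8 CPM in IL-4Rα-/- monocytes (n = 3 each), and the log2 fold change was -0.08 (standard error 0.19, 95% interval -0.52 to 0.37). Without IL-4Rα-/- replicate 2 it was -0.33, with an unadjusted p-value of 0.00701 and an adjusted p = 0.851 (edgeR), and without IL-4Rα-/- replicate 1 or 3 it was 0.03 or 0.04. The sign for *Ncf4* thus depended on single libraries.

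*Rac2* (ENSMUSG00000033220.7, minus strand of chromosome 15 from 78559167 to 78572783) encodes a GTPase of blood cells that can switch the complex on. Its levels were 458, 414 and 431 CPM in IL-4Rα+/+ and 383, 478 and 387 CPM in IL-4Rα-/- replicates 1, 2 and 3. As with *Ncf4*, IL-4Rα-/- replicate 2 was the highest and the others were the lowest of the 6 libraries. The log2 fold change was -0.06 (standard error 0.11, 95% interval -0.32 to 0.20). Per length, *Rac2* was 0.315 to 0.473 times *Cybb* and *Ncf4* was 0.27 to 0.495 times *Cybb*, and both ratios were highest in IL-4Rα-/- replicate 2.

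**Figure D3:**
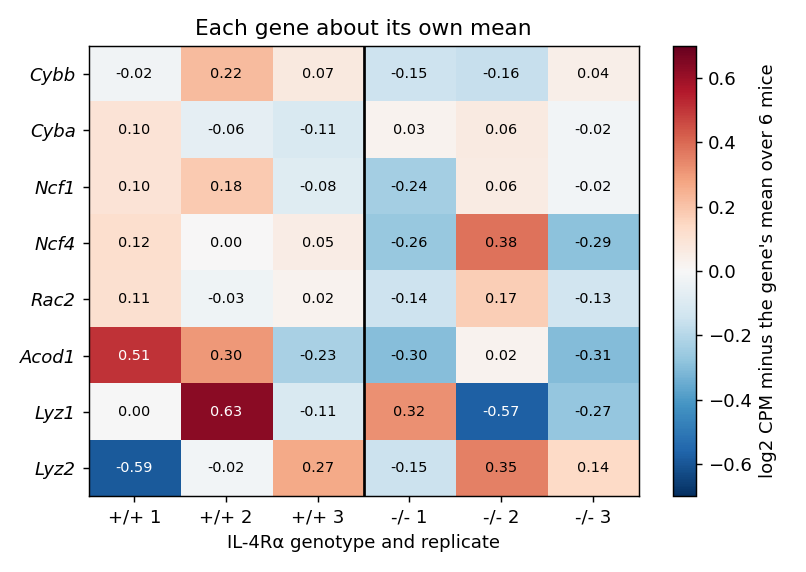
Each cell is the log2 CPM of a gene in 1 library (columns, named by genotype and replicate) minus the gene's mean over 6 libraries, from blue (lower) to red (higher). *Ncf4* and *Rac2* are highest in IL-4Rα-/- replicate 2, where *Lyz1* and *Cybb* are lowest and *Lyz2* is highest. *Lyz2* is lowest in IL-4Rα+/+ replicate 1.

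The inducible enzymes were near or below what these libraries can show. *Nos2* (ENSMUSG00000020826.8, plus strand of chromosome 11 from 78920787 to 78960254) had 0, 1 and 0 counts in IL-4Rα+/+ and 0, 0 and 4 counts in IL-4Rα-/- replicates 1, 2 and 3. Only IL-4Rα-/- replicate 3 was above 3 counts, the upper limit that a count of 0 allows, and no fold is given. *Acod1* (ENSMUSG00000022126.6, plus strand of chromosome 14 from 103046977 to 103056573) had 37, 31 and 20 counts in IL-4Rα+/+ and 20, 26 and 21 counts in IL-4Rα-/- replicates 1, 2 and 3. These were 1.3, 1.12 and 0.754 CPM against 0.713, 0.91 and 0.71 CPM. Controls 1 and 2 were above all IL-4Rα-/- libraries, and control 3 was below the highest of them. The log2 fold change was -0.44 (standard error 0.31, 95% interval -1.19 to 0.30, adjusted p = 0.69 by edgeR), a fold from 0.438 to 1.23. With 20 to 37 counts a library, counting alone gave an error near 20%.

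The lysozymes are neighbours on the minus strand of chromosome 10 and 5475 bp apart. *Lyz2* (ENSMUSG00000069516.8) spans 117277331 to 117282321 and *Lyz1* (ENSMUSG00000069515.6) spans 117287797 to 117292868, each with 4 exons. The coding sequences of GENCODE M21 are shown because the near identity of the genes bears on how their reads were told apart. Their first 300 bases are written 5′ to 3′ from the start codon, with capitals at the bases where the genes differ.
*Lyz1*: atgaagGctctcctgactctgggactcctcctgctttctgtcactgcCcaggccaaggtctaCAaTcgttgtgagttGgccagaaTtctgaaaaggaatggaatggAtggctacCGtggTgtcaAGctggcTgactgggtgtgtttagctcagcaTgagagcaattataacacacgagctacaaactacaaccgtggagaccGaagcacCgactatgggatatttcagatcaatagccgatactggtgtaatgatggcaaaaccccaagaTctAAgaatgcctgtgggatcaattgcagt
*Lyz2*: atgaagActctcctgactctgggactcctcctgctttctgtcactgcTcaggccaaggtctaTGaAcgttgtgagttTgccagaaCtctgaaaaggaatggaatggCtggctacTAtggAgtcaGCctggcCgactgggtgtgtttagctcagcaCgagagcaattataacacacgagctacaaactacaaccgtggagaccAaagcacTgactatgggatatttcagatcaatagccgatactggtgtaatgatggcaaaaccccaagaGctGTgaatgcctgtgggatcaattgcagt
Both coding sequences are 447 bases long in full and differ at 22 bases, 20 of them in the stretch shown, which is 95.1% identity. The longest run without a difference has 118 bases. Of the stretches of 75 bases, the read length, in the whole transcripts, 6.22% of those of *Lyz1* also occur in *Lyz2*, and a read from such a stretch cannot be assigned to either gene. The same holds for 5.96% of the stretches of *Lyz2*, and all others hold at least 1 difference.

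The counts of *Lyz2* were 169 to 502 times those of *Lyz1* within a library. *Lyz2* had 8840, 13100 and 16000 CPM in IL-4Rα+/+ and 12000, 17000 and 14600 CPM in IL-4Rα-/- replicates 1, 2 and 3. This is 0.872% to 1.67% of all counts from a single gene. IL-4Rα+/+ replicate 1 was the lowest, and the other 5 libraries of both genotypes were mixed. The log2 fold change was 0.20 (standard error 0.23, 95% interval -0.36 to 0.76, adjusted p = 0.789 by edgeR), and it was -0.0021 without IL-4Rα+/+ replicate 1. In the 4 male libraries the log2 ratio of the means was -0.0058, and in the 2 female libraries, of which this replicate is one, it was 0.73.

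*Lyz1* had 1433, 2155 and 1239 counts in IL-4Rα+/+ and 1761, 969 and 1233 counts in IL-4Rα-/- replicates 1, 2 and 3. As CPM these were 50.3, 77.9 and 46.7 against 62.8, 33.9 and 41.7, so the highest library was a control and the lowest 2 were IL-4Rα-/-. The log2 fold change was -0.34 (standard error 0.28, 95% interval -1.01 to 0.33, adjusted p = 0.729 by edgeR). It was -0.63 without IL-4Rα-/- replicate 1 (unadjusted p = 0.0474, adjusted p = 0.796, edgeR), -0.16 without IL-4Rα-/- replicate 2 and -0.07 without IL-4Rα+/+ replicate 2. The SD of log2 CPM over the 6 libraries was 0.426 for *Lyz1* and 0.342 for *Lyz2*, above 92.8% and 88.4% of the genes with at least 10 CPM, and by this measure they varied more than the 5 oxidase genes.

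Within a library, the share of *Lyz1* in the counts of both genes is free of library size. It was 0.566%, 0.589% and 0.292% in IL-4Rα+/+ and 0.521%, 0.199% and 0.284% in IL-4Rα-/- replicates 1, 2 and 3. The widest exact 95% binomial interval ran from 0.537% to 0.596%, which covers counting error only. The shares split into 3 libraries above 0.5% and 3 below 0.3%, with libraries of both genotypes on each side. The means were 0.482% ± 0.165 (SD, n = 3) and 0.335% ± 0.167 (SD, n = 3), a difference smaller than the spread within a genotype (p = 0.2 by the same exact permutation test).

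**Figure D4:**
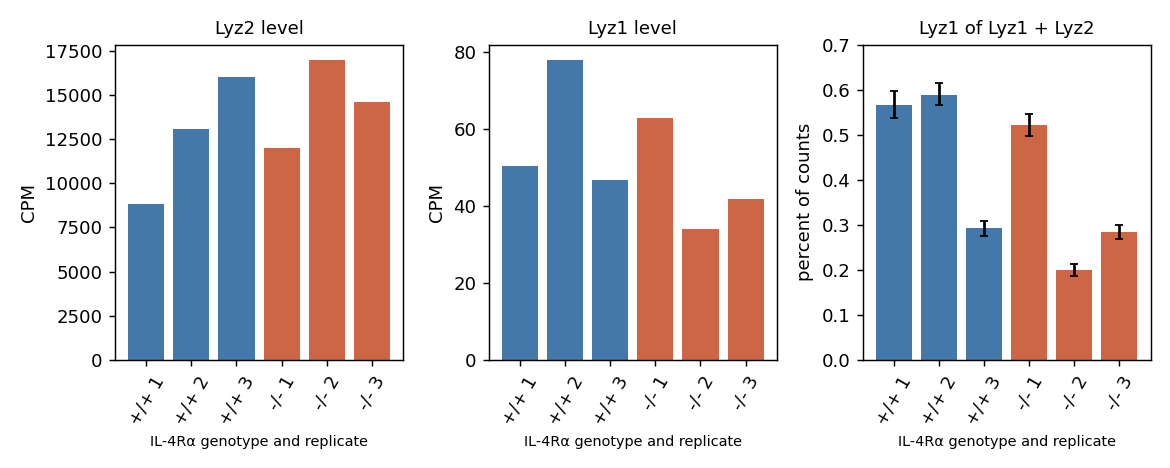
Bars give *Lyz2* CPM, *Lyz1* CPM and the share of *Lyz1* in the counts of both genes in percent for each mouse, blue for IL-4Rα+/+ and orange for IL-4Rα-/-, with exact 95% binomial intervals on the shares. The library with the most *Lyz2*, IL-4Rα-/- replicate 2 at 17000 CPM, has the smallest share of *Lyz1* at 0.199%.

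Of the markers of monocyte subsets, some had their extremes in the same libraries as a lysozyme and others did not. *Ccr2*, a chemokine receptor of Ly6C high monocytes, had 380, 1040 and 1670 CPM in IL-4Rα+/+ and 825, 2010 and 978 CPM in IL-4Rα-/- replicates 1, 2 and 3. Its lowest and highest libraries were those of *Lyz2*, as were those of *Ly6c2*, at 242 and 591 CPM. *Cx3cr1*, which is high in Ly6C low monocytes, had 599, 828 and 525 CPM in IL-4Rα+/+ and 561, 346 and 611 CPM in IL-4Rα-/- replicates 1, 2 and 3, with its highest and lowest libraries those of *Lyz1*. *Nr4a1* and *Fcgr4*, which are also high in Ly6C low monocytes, and the integrin gene *Itgal* were instead highest in IL-4Rα+/+ replicate 1, at 1440, 318 and 2970 CPM. *Nr4a1* and *Itgal* were lowest in IL-4Rα-/- replicate 2, at 538 and 1260 CPM, and *Fcgr4* in IL-4Rα-/- replicate 3, at 111 CPM. *Cd14* and *Itgam* shared only the highest library with *Lyz2*, at 117 and 283 CPM. *Cd14* was lowest in IL-4Rα+/+ replicate 2, at 42.6 CPM, and *Itgam* in IL-4Rα-/- replicate 1, at 190 CPM. These markers were picked from the list of 10 after their values were seen. A different mix of cells and a different amount of RNA per cell cannot be told apart in bulk libraries. The 16 neutrophil markers summed to 208 to 2120 CPM in IL-4Rα+/+ and 429 to 3200 CPM in IL-4Rα-/- monocytes, and 13 of the 14 tested were higher in IL-4Rα-/- monocytes, 5 of them with an unadjusted p-value under 0.05 (edgeR) and 1 called by DESeq2. Most of the sum in IL-4Rα-/- replicate 2 came from *Chil3*, at 2430 CPM, which Ly6C high monocytes also express, and *Ly6g*, which defines neutrophils, had 0 to 9 counts in every library. The 10 markers of red pulp macrophages, the resident macrophages that take up old red cells, summed to 3140 to 3650 CPM in IL-4Rα+/+ and 4200 to 6710 CPM in IL-4Rα-/- monocytes, and all 10 were higher, 6 with an unadjusted p-value under 0.05 (edgeR) and 0 called by DESeq2. The highest sum was in IL-4Rα-/- replicate 1, which had the second lowest *Lyz2*. Markers of red cells and their precursors, at 82.7 to 144 CPM in IL-4Rα+/+ and 198 to 477 CPM in IL-4Rα-/- monocytes, were also higher in all 11 cases, 8 with an unadjusted p-value under 0.05 (edgeR) and 3 called by DESeq2. Of 12 markers of eosinophils, basophils and mast cells, 10 were higher, 8 with an unadjusted p-value under 0.05 (edgeR) and 3 called by DESeq2, with a median log2 fold change of 1.44. Their sum, mostly from *Ear2*, was 124 to 247 CPM in IL-4Rα+/+ and 119 to 247 CPM in IL-4Rα-/- monocytes. Higher values were also seen for 9 of 10 B cell markers, 5 of 10 T and NK cell markers and 3 of 10 dendritic cell markers, of which DESeq2 called 0. No marker of the monocyte, neutrophil and red pulp lists was at 0 in all libraries. Their part in the levels of the lysozymes or of the oxidase genes was not tested.

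By the likeness of their course over the 6 libraries, the genes nearest to *Lyz2* included *Gas8* and *Zcchc24*, with a root mean square difference of 0.0539 and 0.0546 in centred log2 CPM. *Zcchc24* had 54, 86.1 and 98.5 CPM in IL-4Rα+/+ and 73.8, 98 and 88.3 CPM in IL-4Rα-/- replicates 1, 2 and 3, and was lowest in the same library as *Lyz2*. The genes nearest to *Lyz1* were less close. They were *Syne1*, *Nxpe1-ps* and *Calcrl*, at 0.136, 0.147 and 0.155, and *Lyz2* was not among them. The search covered genes with at least 10 CPM. It was made for the lysozymes after their values were seen, because no member reached the SD of 0.5 in log2 CPM that the rule for such a search asked for.

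The sequences just before the start sites of the lysozymes are shown because the levels of the pair lie so far apart. The 250 bases are from RefSeq on GRCm38.p6, minus strand, written 5′ to 3′ up to the start. Capitals mark AGGAAG (the core bound by ETS factors such as PU.1) and CCAAT on either strand, which do not overlap each other here.
*Lyz1*, chr10:117292869-117293118: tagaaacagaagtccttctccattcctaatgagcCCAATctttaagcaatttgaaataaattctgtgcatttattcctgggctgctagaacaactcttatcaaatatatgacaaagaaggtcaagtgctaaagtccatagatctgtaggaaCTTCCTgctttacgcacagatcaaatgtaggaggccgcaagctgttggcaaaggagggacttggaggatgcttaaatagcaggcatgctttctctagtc
*Lyz2*, chr10:117282273-117282522: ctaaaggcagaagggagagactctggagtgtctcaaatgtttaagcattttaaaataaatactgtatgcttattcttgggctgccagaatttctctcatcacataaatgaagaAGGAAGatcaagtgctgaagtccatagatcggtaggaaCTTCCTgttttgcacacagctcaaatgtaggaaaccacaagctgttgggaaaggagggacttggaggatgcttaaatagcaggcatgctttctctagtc
The last 50 bases were identical, and 92 of the last 100 bases were. AGGAAG occurs once in the *Lyz1* sequence, starting 99 bases before the start site, and in the *Lyz2* sequence at that place and a second time, 137 bases before the start. Of 32851 such sequences in the table, 29.5% hold AGGAAG and 33.8% hold CCAAT, which was found in *Lyz1* and not in *Lyz2*. The searches for TATAAA, TTGCGCAA and GGGCGG gave no match in either sequence, against 12.4%, 0.164% and 32.7% of all. The GENCODE start of *Lyz2* lies 49 bases further upstream, so the end of its window is in the first exon of that annotation. A match is only a description of these letters.

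Partners of the oxidase were given from a list of 12 further genes, all of which were tested. In this list 6 genes had a log2 fold change above 0 and 6 below, with a median of 0.04. None passed the adjusted threshold with edgeR or DESeq2 (0 of 12). At an unadjusted p-value under 0.05 (edgeR) there was 1 of 12, where 8.09% of all genes tested were, here and for the lists that follow. That gene was *Prkcb*, a protein kinase C that phosphorylates the product of *Ncf1*. It had 176, 154 and 117 CPM in IL-4Rα+/+ and 117, 91.1 and 106 CPM in IL-4Rα-/- replicates 1, 2 and 3, with a log2 ratio from edgeR of -0.51 (standard error 0.17, adjusted p = 0.618 by edgeR). *Prkcd*, another kinase of this family and the strongest gene of the list, had 1540 ± 291 CPM (SD, n = 3) in IL-4Rα+/+ and 1180 ± 174 CPM (SD, n = 3) in IL-4Rα-/- monocytes. *Arhgdib*, which holds Rac proteins inactive in the cytosol, had 696 ± 83.7 and 812 ± 123 CPM (SD, n = 3 each).

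Other NADPH oxidases were almost absent from the libraries. Of 9 genes for these enzymes and their partners, 5 had 0 counts in all libraries and 8 were below 1 CPM on average. The exception was *Noxo1*, the organizer of the NOX1 enzyme, at 2.47 ± 0.475 CPM (SD, n = 3) in IL-4Rα+/+ and 2.45 ± 0.452 CPM (SD, n = 3) in IL-4Rα-/- monocytes, whereas *Nox1* itself had a mean of 0.0407 CPM. The other lysozyme genes were absent in the same way. Of 7, 5 had 0 counts in all libraries and the strongest, *Lyzl4*, had a mean of 0.0467 CPM.

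Among 10 genes that remove superoxide and peroxide, all tested, 6 were above 0 in log2 fold change and 4 below, with a median of 0.14. *Prdx1*, a peroxidase that reduces hydrogen peroxide, had the only unadjusted p-value under 0.05. It had 266, 239 and 293 CPM in IL-4Rα+/+ and 346, 369 and 320 CPM in IL-4Rα-/- replicates 1, 2 and 3, without overlap. The log2 fold change was 0.37 (standard error 0.10, adjusted p = 0.618 by edgeR), so it did not pass. *Gpx1* and *Prdx5*, the strongest genes of this list, had log2 fold changes of -0.0090 (standard error 0.10) and -0.02 (standard error 0.11). Of the 10 genes, 0 were called by DESeq2.

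Most genes around nitric oxide were above 1 CPM on average, although *Nos2* was not. Of 11 genes, 9 were tested, 5 of them above 0 in log2 fold change and 4 below, with a median of 0.05. *Gch1* and *Pts*, which make the tetrahydrobiopterin that nitric oxide synthases need, had mean levels of 45.3 and 91.4 CPM. *Ass1*, which remakes arginine from citrulline, was the gene with an unadjusted p-value under 0.05 (1 of 9). It had 27.5, 26.6 and 27.2 CPM in IL-4Rα+/+ and 28, 35.3 and 33.4 CPM in IL-4Rα-/- replicates 1, 2 and 3, with a log2 ratio from edgeR of 0.25 (standard error 0.10, adjusted p = 0.618 by edgeR). *Arg1*, the arginase that IL-4 induces in macrophages, was not tested and had 4, 2 and 1 counts in IL-4Rα+/+ and 1, 2 and 0 counts in IL-4Rα-/- replicates 1, 2 and 3. It is named after its values were seen. Of the genes of this list, 0 were called by DESeq2.

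For the induction of *Nos2* and *Acod1*, a list of 12 genes held the interferon gamma receptor, its kinases and a set of transcription factors. All 12 were tested, and whether each acts on both genes was not looked at. Here 3 were above 0 in log2 fold change and 9 below, with a median of -0.10 (-0.0969 before rounding). *Irf1*, an interferon response factor that *Nos2* needs, had the only unadjusted p-value under 0.05. Its levels were 292, 269 and 268 CPM in IL-4Rα+/+ and 250, 245 and 238 CPM in IL-4Rα-/- replicates 1, 2 and 3, without overlap but with a log2 ratio of -0.18 (standard error 0.07, adjusted p = 0.618 by edgeR). *Ifngr1* and *Spi1*, the strongest of the list, had 871 ± 63 and 634 ± 30.4 CPM (SD, n = 3) in IL-4Rα+/+ and 773 ± 36.9 and 605 ± 13.7 CPM (SD, n = 3) in IL-4Rα-/- monocytes. Of the 7 genes around itaconate, 5 were above 0 and 2 below, with a median of 0.07 and none at an unadjusted p-value under 0.05 (0 of 7, edgeR). *Sdha*, the enzyme itaconate inhibits, had a log2 fold change of -0.05 (standard error 0.08), and *Cs* of 0.02 (standard error 0.09). DESeq2 called 0 genes of either list.

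Finally, 6 other genes of phagosome killing were tested, 2 above and 4 below 0, with a median of -0.05. *Mpeg1*, which encodes the pore-forming perforin of macrophages, was at 3200 ± 607 CPM (SD, n = 3) in IL-4Rα+/+ and 3130 ± 344 CPM (SD, n = 3) in IL-4Rα-/- monocytes, and *Lgals3*, which encodes a galectin, was at 553 ± 117 and 668 ± 107 CPM. *P2rx7*, an ATP receptor, had 89.9, 86.6 and 79.9 CPM in IL-4Rα+/+ and 73.9, 71.6 and 78.4 CPM in IL-4Rα-/- replicates 1, 2 and 3, with -0.20 as log2 fold change (standard error 0.08, unadjusted p = 0.0408, adjusted p = 0.618 by edgeR). No gene of this list passed with edgeR or DESeq2 (0 of 6).

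**Figure D5:**
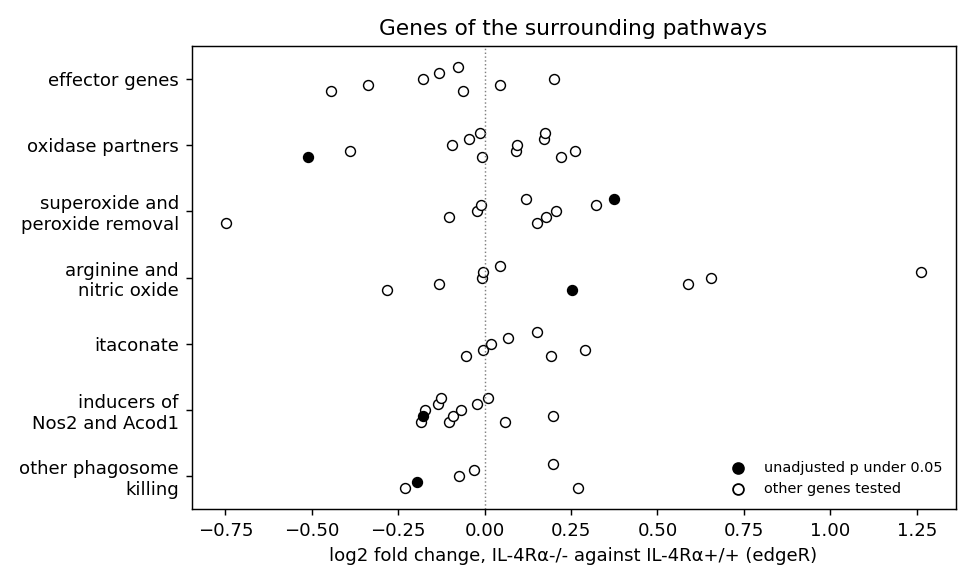
Each circle is the log2 fold change of 1 tested gene of the effector genes or of 6 lists around them, IL-4Rα-/- against IL-4Rα+/+ monocytes, filled where the unadjusted p-value was under 0.05. Most circles lie within 0.5 of 0, and filled circles are *Prkcb*, *Prdx1*, *Ass1*, *Irf1* and *P2rx7*. Of all 13849 genes tested, 8.09% had an unadjusted p-value under 0.05 (edgeR), so some filled circles would be found in any lists of this kind.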

How the data were processed

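RNA of splenic monocytes from 6 mice was measured by sequencing of polyadenylated RNA in directional libraries, read as single ends of 75 bp. With STAR 2.6.1a and a Gencode annotation of GRCm38, the authors mapped and counted reads per gene, and they deposited raw counts, 1 file per library, without normalization. STAR's lines for reads not assigned to a gene, 21.08% to 22.84% of each library, were left out. Which strand setting the counts used is not given in the sources used here. Symbols came from GENCODE M21, in which 55240 of 55421 identifiers were found.

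Genes were kept by filterByExpr with a minimum count of 10, normalized by TMM and tested for genotype with edgeR 4.0.16 (quasi-likelihood) in R 4.3.3, with Benjamini-Hochberg adjustment over 13849 genes. DESeq2 1.42.0 was run beside it. Log2 CPM used a prior count of 2, and 3 counts was taken as the floor. Single values were compared by exact permutation. The fits were tested on simulated data. The genes named were the members, *Il4ra*, and from each pathway list the 2 strongest genes and those with an unadjusted p-value under 0.05. Marker genes of cell types, *Arg1* and the genes nearest to the lysozymes were named outside this rule, after their values were seen. The members and lists were chosen with earlier results of these data known. Nothing says that the mice of a genotype came from separate litters or cages, so p-values cover only the spread between these mice. Some genes of the lists and searches are not reported here.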

Additional observations from a re-analysis of the deposited data

Results flagged for a closer look

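Reads that mapped to several places, which no comparison used, made up 8.301%, 8.324% and 8.86% of all reads in IL-4Rα+/+ and 9.19%, 9.355% and 9.025% in IL-4Rα-/- replicates 1, 2 and 3. All 3 IL-4Rα-/- libraries were above the controls, the lowest of them at 9.025%, and the difference was not tested. Such reads can come from *Lyz1* and *Lyz2*, among many other genes, and the part of the 2 lysozyme genes in them was not tested.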

How the results depend on the processing

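No member was called under any of the 15 alternatives to the main test. The number of genes called among all those tested was 0 with edgeR's quasi-likelihood test, and it was 80 with DESeq2 and 14 with edgeR's likelihood ratio test, while the cause was not tested. When 1 mouse was left out, 0 genes were called in each case, and the difference in the share of *Lyz1*, -0.15 percentage points in all mice, lay between -0.24 and -0.08. Over all alternatives, 4 log2 fold changes of members changed sign and 108 kept it. *Cyba* went from 0.0447 to -0.0713 after a correction for transcript length. *Ncf4* went from -0.08 to 0.03 without IL-4Rα-/- replicate 1 and to 0.0398 without IL-4Rα-/- replicate 3, with a range from -0.331 to 0.0398 over the leave-one-out fits. *Lyz2* went from 0.20 to -0.00207 without IL-4Rα+/+ replicate 1, with a range from -0.00207 to 0.406. A fit with a replicate block called 0 genes and 0 members, and had 765 genes at an unadjusted p-value under 0.05 against 1120. Same-numbered libraries had correlations of 0.185, -0.271 and -0.296 in their deviations from the group means. Such values cannot tell whether mice of the same number shared a litter or were handled together, so pairing was left undecided. *Acod1* and *Nos2* had no more than 37 counts in a library, and no setting tested another depth or more mice.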
